A study of Mus musculus with 6 samples.

Results

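Polyoma middle T antigen has no enzyme activity of its own and transforms mammary epithelium through mouse proteins, and the genes of 10 such host partners are described here: the kinases Src, Yes1 and Fyn, the adaptor Shc1, the phosphoinositide 3-kinase subunits Pik3ca and Pik3r1, the phospholipase Plcg1, the protein phosphatase 2A (PP2A) subunits Ppp2r1a and Ppp2ca, and the kinase Akt1. They were chosen by name as proteins that bind middle T or signal for it, and 10 of 10 were found among the 19938 named genes on the arrays. Each was represented by 1 probe set that named no other gene. RNA came from solid, non-necrotic mammary gland tumours of female MMTV-PyMT+ mice of the FVB strain at 15 weeks of age, 6 tumours in all, with every mouse carrying middle T under the mouse mammary tumour virus promoter, which is active in mammary epithelium. In the DPM group 3 tumours came from mice injected intraperitoneally with DPM at 10 mg/kg on 5 days of each week, with 2 days off, for 11 weeks from 4 weeks of age. In the vehicle group 3 tumours came from mice given vehicle on the same schedule. DPM is the only name in the labels; from knowledge of the study it is taken to be dipyridamole, which blocks cellular uptake of nucleosides and inhibits phosphodiesterases of cyclic nucleotides.

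As background, middle T is held at the cell membrane, where it first takes up the A and C subunits of PP2A and then a Src family kinase. The kinase phosphorylates middle T on tyrosines, and these then dock Shc1, the p85 regulatory subunit of phosphoinositide 3-kinase, and phospholipase C gamma 1. Shc1 leads to the RAS pathway, p85 and its p110 catalytic partner make the lipid that activates Akt, and phospholipase C gamma releases second messengers for calcium and protein kinase C. In mammary tumours of this transgenic line these routes are known to work together. Most of this signalling acts through binding and phosphorylation, and the arrays measured RNA only.

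None of the 10 genes passed the test between DPM and vehicle tumours. Their fitted differences ran from -0.14 log2 units for Ppp2ca to 0.11 for Src, and the 2 groups of tumours overlapped for all 10. By limma, whose p-values were adjusted by the Benjamini-Hochberg method over 14953 genes, every member had an adjusted p of 0.9996. The unadjusted p-values ran from 0.162 to 0.896. Over all genes tested, 0 passed the adjusted threshold of 0.05 (0% called), 578 had an unadjusted limma p under 0.05 (3.87%), and 1042 had groups that did not overlap (6.97%). Among the members 0 of 10 had an unadjusted p under 0.05 and 0 of 10 had groups apart. The 95% interval of the difference held 0 for 10 of 10 members. It lay within 0.5 log2 units of 0 for 10 of 10, as it did for 84.1% of all genes tested. The highest bound of any member was 1.33 times the vehicle level, for Src, and the lowest was 0.772 times, for Plcg1, without adjustment for looking at 10 genes.

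**Figure D1:**
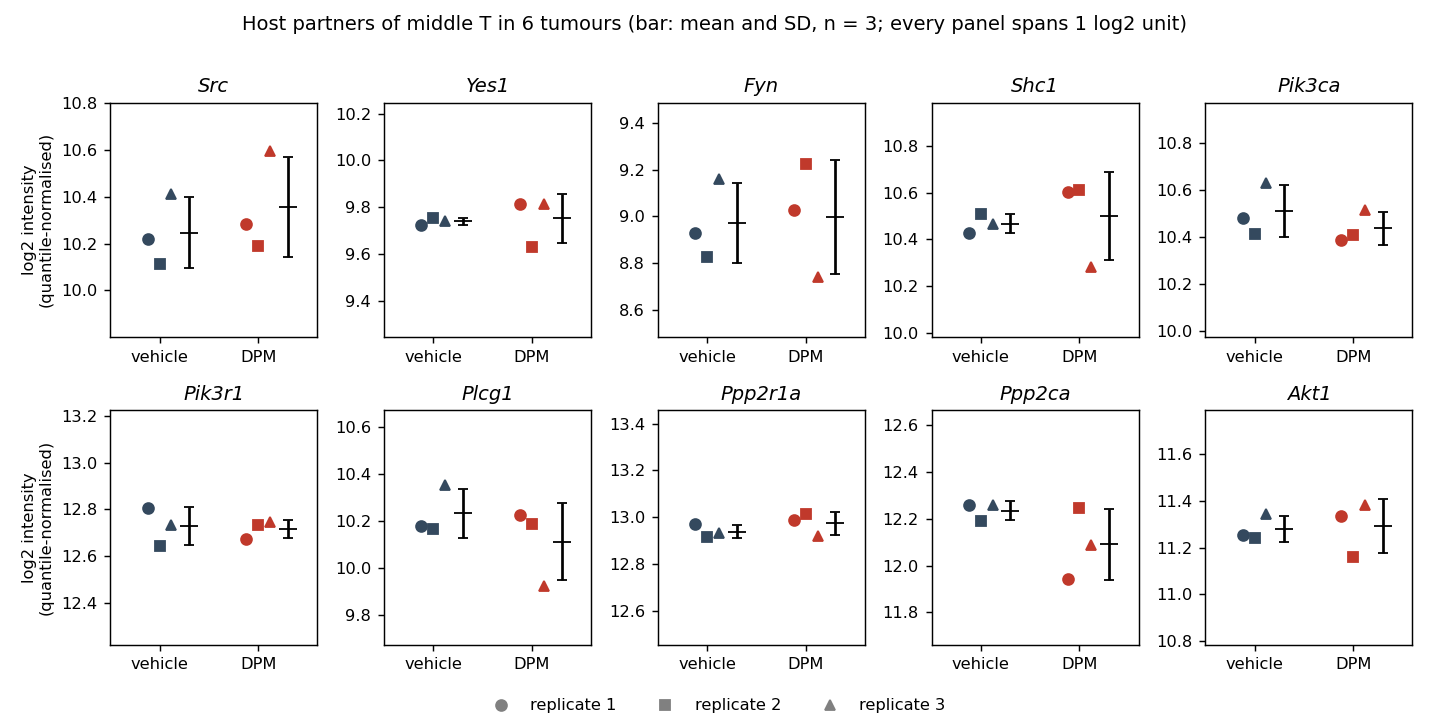
Quantile-normalised log2 intensity of the 10 host partner genes on each array, by group, with symbols for the replicate number and a bar for the mean and SD (n = 3 per group); each panel spans the same height on the log2 scale. The 2 groups overlap in every panel, and the 6 arrays are closest together for Ppp2r1a and farthest apart for Src and Fyn.

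Values below are log2 intensities after quantile normalisation, in the order of replicates 1, 2 and 3. A probe set's brightness depends on its own probes, so levels are compared between arrays and not between genes. Among luminal epithelial markers, the gene of Epcam, an epithelial adhesion protein, ran from 11.43 to 11.69 over the 6 arrays. The luminal keratin genes Krt8 and Krt18 ran from 13.32 to 13.71 and from 12.21 to 12.71, and Krt19 from 10.75 to 11.79. The epithelial cadherin gene Cdh1 ran from 12.13 to 12.41. Elf5, also on the luminal list of 8, had values of 12.38, 12.23 and 12.31 in DPM and 12.18, 11.82 and 11.98 in vehicle tumours. Its groups did not overlap, with DPM above vehicle by 0.32 log2 units (SE 0.11). The other luminal markers, Cldn7 and Esr1 among them, had lower means in DPM tumours, with overlapping groups. Their differences ran from -0.42 for Krt19 to -0.02 for Cdh1. No luminal marker passed the adjusted threshold. No reference tissue was on the arrays, so these levels do not give the share of epithelial cells. The deposited median intensity ran from 270 to 301 per array. The upper quartile was 869 on DPM replicate 3, 887 on vehicle replicate 3 and 717 to 748 on the other arrays. On the deposited scale each of the 10 members was highest on an array numbered 3. After normalisation this held for 5 of 10. The share over all genes was not counted, so neither count is read as a trait of the members. Bulk tumour was measured, so fewer cells of a type and less RNA per cell cannot be told apart.

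Src encodes the kinase first found bound to middle T. Its values were 10.28, 10.19 and 10.59 in DPM tumours and 10.22, 10.11 and 10.41 in vehicle tumours. Replicate 3 was the highest array of each group, and the other 4 arrays lay between 10.11 and 10.28. The means were 10.35 ± 0.21 and 10.25 ± 0.15 (SD, n = 3 each), which differed by 0.11 log2 units (SE 0.13, limma adjusted p = 0.9996). The deposited Src intensities were 1140, 1126 and 1742 in DPM and 1146, 1003 and 1576 in vehicle tumours. Without DPM replicate 3 the Src difference was -0.01 log2 units, so its sign turned.

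Yes1, a close relative of Src that also binds middle T, had values of 9.81, 9.63 and 9.81 in DPM and 9.72, 9.75 and 9.74 in vehicle tumours. The vehicle tumours lay within 0.03 log2 units of each other, inside the wider span of the DPM tumours. The difference was 0.01 (95% interval -0.19 to 0.21). Fyn, the third Src family kinase known to bind middle T and one that T lymphocytes also use, had values of 9.03, 9.23 and 8.74 in DPM and 8.93, 8.83 and 9.16 in vehicle tumours. Both its highest and its lowest value were in DPM tumours, at replicates 2 and 3. The difference of the Fyn means was 0.03 (95% interval -0.31 to 0.36), with SDs of 0.24 in DPM and 0.17 in vehicle tumours. Without both arrays numbered 3 the Fyn difference was 0.24 (SE 0.12, limma adjusted p = 0.99986). T cell markers, of which 7 of 8 were measured, had a summed level of 10.54 to 10.67 on the DPM arrays and 10.64 to 10.82 on the vehicle arrays (log2 of the summed intensities). Their part in the Fyn values was not tested.

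Shc1 encodes the adaptor that links phosphorylated middle T to Grb2 and RAS. Its values were 10.60, 10.61 and 10.28 in DPM and 10.43, 10.51 and 10.47 in vehicle tumours. DPM replicates 1 and 2 were above every vehicle tumour, and DPM replicate 3 was below every one. The means were 10.50 ± 0.19 and 10.47 ± 0.04 (SD, n = 3 each), which differed by 0.03 (SE 0.11). Without DPM replicate 3 the Shc1 difference was 0.14 (SE 0.09, limma adjusted p = 0.99983).

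Pik3ca encodes the p110-alpha catalytic subunit of phosphoinositide 3-kinase. It had values of 10.39, 10.41 and 10.52 in DPM and 10.48, 10.41 and 10.63 in vehicle tumours, with a difference of -0.07 (95% interval -0.28 to 0.14). Replicate 3 was again the highest of each group. Pik3r1 encodes p85-alpha, the subunit that docks on middle T, and had values of 12.67, 12.73 and 12.75 in DPM and 12.81, 12.64 and 12.73 in vehicle tumours. Its highest and lowest values were both in vehicle tumours, and its difference was -0.01 (95% interval -0.18 to 0.16).

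Plcg1 encodes phospholipase C gamma 1, which docks on a further tyrosine of middle T. It had values of 10.23, 10.19 and 9.92 in DPM and 10.18, 10.17 and 10.35 in vehicle tumours. DPM replicate 3 was the lowest array and vehicle replicate 3 the highest, and the other 4 arrays lay within 0.06 log2 units. The means were 10.11 ± 0.17 and 10.23 ± 0.10 (SD, n = 3 each), which differed by -0.12 (SE 0.11, limma adjusted p = 0.9996). Without DPM replicate 3 the Plcg1 difference was -0.03, and without both arrays numbered 3 it was 0.03, so its sign turned.

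Akt1 encodes the kinase that phosphoinositide 3-kinase activates downstream of middle T. It had values of 11.33, 11.16 and 11.38 in DPM and 11.26, 11.24 and 11.34 in vehicle tumours. As for Yes1, the vehicle tumours fell inside the span of the DPM tumours. The difference was 0.01 (95% interval -0.19 to 0.22).

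Ppp2r1a encodes the scaffold (A) subunit of PP2A and varied least of the 10 genes, over a range of 0.0983 log2 units on all 6 arrays. Its values were 12.99, 13.01 and 12.92 in DPM and 12.97, 12.91 and 12.93 in vehicle tumours, with a difference of 0.03 (95% interval -0.12 to 0.19). Ppp2ca encodes the main catalytic (C) subunit, which middle T binds together with the scaffold. Its values were 11.94, 12.25 and 12.09 in DPM and 12.26, 12.19 and 12.26 in vehicle tumours. DPM replicates 1 and 3 were below every vehicle tumour, while DPM replicate 2 lay among them. The means were 12.09 ± 0.15 and 12.23 ± 0.04 (SD, n = 3 each), or 0.905 times the vehicle level (95% interval 0.780 to 1.05 times). Of the 10 members it had the smallest unadjusted p, 0.162 (limma adjusted p = 0.9996), and an exact two-sided permutation test over the arrays gave p = 0.2, where the smallest p possible is 0.1. The deposited Ppp2ca intensities were 3597, 4757 and 4880 in DPM and 4761, 4309 and 5541 in vehicle tumours. The Ppp2ca difference was -0.22 without DPM replicate 2 (unadjusted p = 0.0455, limma adjusted p = 0.99985) and -0.07 without DPM replicate 1.

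**Figure D2:**
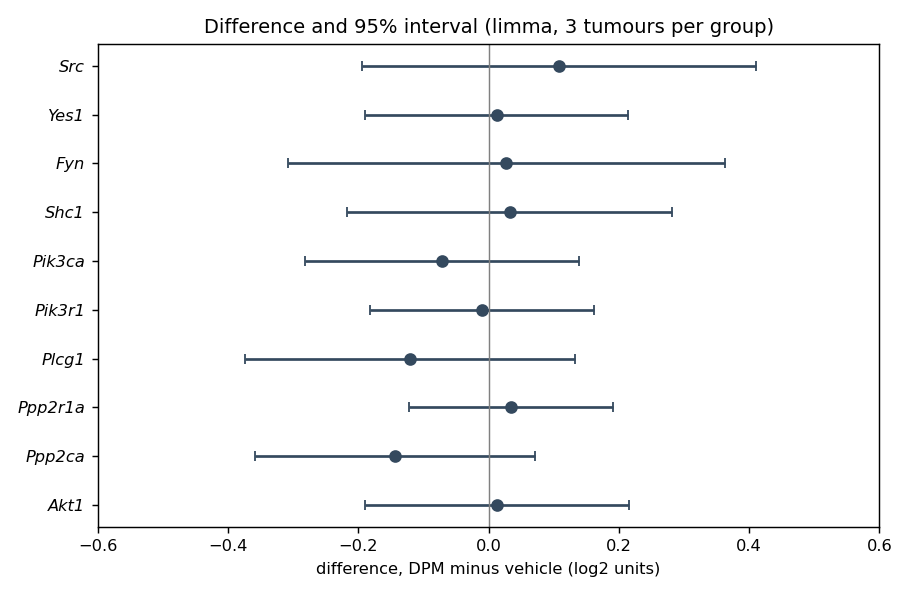
Difference between DPM and vehicle tumours for each host partner gene (points, log2 units, DPM minus vehicle) with its 95% interval from the limma fit, 3 tumours per group. All 10 intervals cross 0, with the narrowest for Ppp2r1a and the widest for Fyn.

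The spread between tumours differed from member to member. The range over the 6 arrays ran from 0.0983 log2 units for Ppp2r1a to 0.484 for Src. The SD was larger in DPM than in vehicle tumours for 8 of the 10 genes and for 49.1% of all genes tested. The median SD within groups was 0.102 for the members and 0.135 for all genes tested, and the median size of the difference was 0.0336 and 0.0621 log2 units. Fyn, Shc1 and Plcg1 were each lowest on DPM replicate 3, at 0.242, 0.201 and 0.25 log2 units below their own means over the arrays, while Src was highest there, at 0.294 above. That array also had the lowest scores of the fibroblast (-0.842), adipocyte (-0.463), macrophage (-0.315), B cell (-0.187), endothelial (-0.130) and T cell (-0.115) marker lists, a score being the mean deviation of the genes of a list from their own means. The 8 of 8 fibroblast markers measured had a summed log2 level of 12.26 on it, against 13.37 and 13.08 on the other DPM arrays and 13.07 to 13.39 on the vehicle arrays. The part of these cell types in the values of Fyn, Shc1 and Plcg1 was not tested. On DPM replicate 1 Ppp2ca was lowest, at 0.222 below its own mean. There the adipocyte markers, 6 of 7 measured, summed to 11.92, against 10.31 to 10.97 on the other 5 arrays. That array had the highest adipocyte (0.959), skeletal muscle (0.517), fibroblast (0.384) and endothelial (0.243) scores. Vehicle replicate 3 was close for skeletal muscle (0.511), and vehicle replicate 2 for fibroblast (0.345). The part of these cell types in the Ppp2ca value was not tested. Scores of the 10 marker lists overlapped between the groups for 8, the luminal, adipocyte, fibroblast, macrophage, B cell, neutrophil, endothelial and skeletal muscle lists, with differences of the group means from -0.332 (fibroblast) to 0.108 (skeletal muscle). The DPM arrays were wholly below the vehicle arrays for the basal and T cell lists, by -0.384 and -0.0985 log2 units. Of the 7 T cell genes measured, 4 passed the filter on mean level. The summed T cell levels did overlap, at 10.54 to 10.67 on the DPM arrays and 10.64 to 10.82 on the vehicle arrays. No array had all 10 members on the same side of their means: the count above the mean ran from 3 on vehicle replicate 2 to 7 on vehicle replicate 3.

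**Figure D3:**
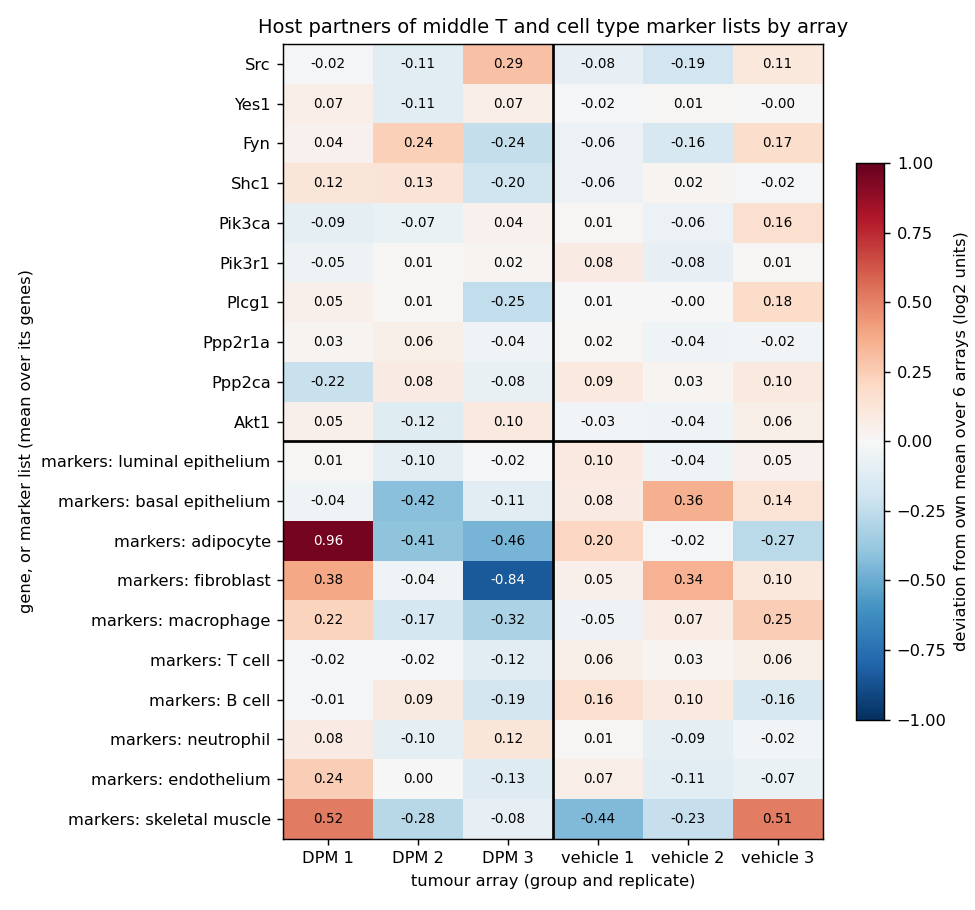
Deviation of each host partner gene (upper rows) and of each cell type marker list (lower rows, mean over the genes of the list) from its own mean over the 6 arrays, in log2 units, by tumour array. On DPM replicate 3 Fyn, Shc1 and Plcg1 have their lowest values and Src its highest, and the fibroblast list is at -0.84.

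Among other genes of the same signalling steps, 94 of 100 listed were found and 92 passed the filter on mean level; the others were not analysed here. By limma 0 of 92 passed the adjusted threshold in either direction. An unadjusted p under 0.05 was seen for 4 (4.35%, against 3.87% of all genes tested), and 11 had groups that did not overlap (12%, against 6.97%), 6 with DPM above vehicle (3.49% of all genes tested) and 5 with DPM below (3.48%). The means were higher in DPM tumours for 46 and lower for 46. The median difference was 0.00374 log2 units, against 0.000553 over all genes tested.

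Of the other 6 Src family kinases listed, 3 were found and passed the filter, and the rest were not analysed here. Frk, an epithelial member of the wider family, had values of 10.11, 10.06 and 10.04 in DPM and 10.29, 10.54 and 10.36 in vehicle tumours. The 3 DPM tumours were below the 3 vehicle tumours, at 0.798 times their level, a difference of -0.33 log2 units (SE 0.09, unadjusted p = 0.00821, limma adjusted p = 0.9996). Blk, a B cell kinase, differed by 0.09. Among the 7 regulators of Src kinases 0 had an unadjusted limma p under 0.05. Csk, which phosphorylates the inhibitory tail of Src kinases, differed by 0.03, and the phosphatase genes Ptpn11 and Ptpra by -0.10 and 0.08.

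Grb2, the adaptor that Shc1 recruits, had values of 9.21, 9.34 and 9.38 in DPM and 10.03, 9.38 and 9.82 in vehicle tumours. Its groups met at DPM replicate 3 and vehicle replicate 2, and its difference was -0.44 log2 units (SE 0.16, unadjusted p = 0.0271, limma adjusted p = 0.9996). The other 6 measured genes of that list ran from -0.24 for Shc4, a Shc relative, to 0.07.

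The other class I phosphoinositide 3-kinase subunits had higher means in DPM tumours for 6 of 7 genes, where 50.3% of all genes tested did. Pik3cg, the catalytic subunit that G protein-coupled receptors activate and that leukocytes are rich in, had values of 10.22, 9.86 and 9.88 in DPM and 9.79, 9.69 and 9.66 in vehicle tumours. Its groups did not overlap, with a difference of 0.27 (SE 0.12, unadjusted p = 0.0461, limma adjusted p = 0.9996). Pik3r3, a regulatory subunit, had a difference of 0.37 (SE 0.21), with vehicle replicate 2 low at 8.99. The nearest relatives of the members, Pik3cb and Pik3r2, differed by -0.05 and 0.05. Among the 4 lipid phosphatases measured, which oppose or redirect phosphoinositide 3-kinase, the 5-phosphatase genes Inpp5d and Inpp5k differed by -0.08 and 0.06.

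Akt2, the second Akt kinase, differed by -0.03, and by 0.03 at its other probe set. The kinase gene Mtor had values of 9.93, 9.92 and 9.92 in DPM and 9.86, 9.78 and 9.83 in vehicle tumours. The groups did not overlap, and their means differed by 0.10 log2 units (SE 0.08). Mlst8, its partner, differed by 0.11. Among the 12 Akt substrates and targets 9 had the higher mean in DPM tumours, where 50.3% of all genes tested did. Their median difference was 0.0437 log2 units, against 0.000553 over all genes tested, and 0 of 12 had an unadjusted limma p under 0.05. Tbc1d4, an Akt substrate in glucose transporter traffic, differed by 0.18 (SE 0.09) and the forkhead factor gene Foxo1 by 0.15 (SE 0.12), limma adjusted p = 0.9996 for both.

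In the phospholipase C gamma arm, Prkca, which encodes protein kinase C alpha, had the largest difference of the 92 genes. Its values were 10.97, 10.87 and 10.34 in DPM and 11.45, 11.18 and 12.03 in vehicle tumours. The 3 DPM tumours were below the 3 vehicle tumours, at 0.564 times their level (95% interval 0.386 to 0.823 times, unadjusted p = 0.00829, limma adjusted p = 0.9996). Prkcd, another protein kinase C, also had its groups apart, with a difference of -0.15 (SE 0.08). Plcg2, the relative of Plcg1 found mainly in blood cells, differed by -0.06. Basal epithelial markers, 7 of 7 measured, had summed log2 levels of 12.17 to 12.63 on the DPM arrays and 12.80 to 13.11 on the vehicle arrays, and their part in the values of Prkca, Prkcd and Frk was not tested.

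For PP2A, the second scaffold gene Ppp2r1b differed by 0.06 and the second catalytic gene Ppp2cb by -0.10 (SE 0.08). Ppp2cb had values of 11.25, 11.30 and 11.26 in DPM and 11.48, 11.26 and 11.36 in vehicle tumours, which overlapped. Of the regulatory (B) subunits, whose place on PP2A middle T takes, 10 of 11 passed the filter, 5 with the higher and 5 with the lower mean in DPM tumours. Ppp2r5c differed by 0.12 (SE 0.08) without overlap, and by 0.00, 0.02 and 0.06 at its other 3 probe sets. Ppp2r2b, a mainly neuronal subunit, differed by -0.13, at a mean level of 7.26, just above the filter level of 7.238. Among 10 assembly factors and inhibitors, Ppme1, the PP2A methylesterase, differed by -0.09 without overlap, and Set, a PP2A inhibitor, by -0.13, and by -0.06 at its other probe set. Set had a mean level of 7.75, and its other probe set had group means of 7.09 and 7.15, under the filter level.

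The 14-3-3 proteins, which bind phosphoserine and also bind middle T, had lower means in DPM tumours for 7 of 7 genes, where 49.7% of all genes tested did. Their median difference was -0.0919 log2 units, the groups overlapped for all 7, and 0 of 7 had an unadjusted limma p under 0.05. Sfn, the epithelial 14-3-3 sigma, differed by -0.39 (SE 0.26), and by -0.49 at its other probe set, and Ywhag by -0.12 (SE 0.10). Ywhah and Ywhaz also had 2 probe sets each, of which only the brighter was counted here. With median centring Ywhae and Ywhaz had differences of 0.00565 and 0.0200, so that 7 of 7 did not hold under that scaling, and without between-array normalisation Ywhaz was at 0.00418. Among 10 genes of the Hippo pathway, whose effectors middle T can activate, Ccn2, a target gene for a secreted matricellular protein, differed by -0.30 (SE 0.13) and the transcription factor gene Tead1 by -0.23 (SE 0.11; -0.16 at its other probe set), with limma adjusted p = 0.9996 for both.

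**Figure D4:**
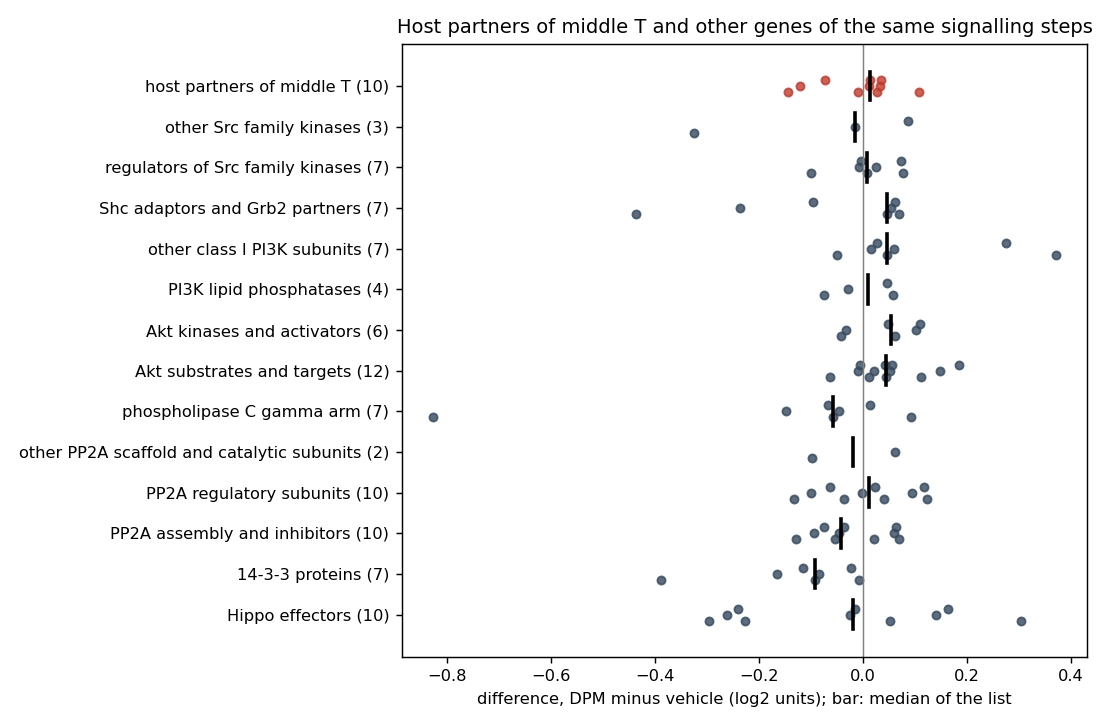
Difference between DPM and vehicle tumours (log2 units, DPM minus vehicle) of each host partner gene and of each measured gene in 13 lists of related genes, with a bar for the median of the list and the number of genes in parentheses. The host partners lie between -0.14 and 0.11, and the farthest point is Prkca at -0.83.

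The members' promoters were compared for features that played no part in the choice of genes. RefSeq sequence on GRCm38.p6 was matched by symbol for 10 of 10 members and for 11772 of the 14953 genes tested, and the 250 bases before the most upstream listed start of each gene were read. Promoters rich in CpG, with an observed over expected ratio above 0.6, were found for 9 of 10 members and for 60.4% of the tested genes matched. GGGCGG, the core of the GC box that Sp1 binds, on either strand, was present in 9 of 10 members and in 55.5% of tested genes. TATAAA on either strand was in 0 of 10 members and 7.2% of tested genes, and CCAAT on either strand in 5 of 10 and 35.3%. The median GC content was 69.2% for the members and 59.2% for the tested genes matched, and the motif shares were not adjusted for it. TGACGTCA, the palindromic cAMP response element, was searched after the sequences had been seen. It was in 1 of 10 members, Ppp2ca, and in 2.53% of tested genes; it overlaps none of the other motifs in that promoter. The 150 bases before the start of both PP2A genes are given here because they are the subunits that middle T binds first and hold the least variable member and the member with the smallest p. They lie on the plus strand at chr17:20945304-20945453 for Ppp2r1a and chr11:52098674-52098823 for Ppp2ca, and capitals mark GGGCGG, its reverse complement CCGCCC, or TGACGTCA.
Ppp2r1a: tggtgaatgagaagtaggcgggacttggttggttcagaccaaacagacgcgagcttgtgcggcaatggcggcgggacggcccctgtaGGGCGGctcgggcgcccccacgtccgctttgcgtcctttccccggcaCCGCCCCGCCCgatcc
Ppp2ca: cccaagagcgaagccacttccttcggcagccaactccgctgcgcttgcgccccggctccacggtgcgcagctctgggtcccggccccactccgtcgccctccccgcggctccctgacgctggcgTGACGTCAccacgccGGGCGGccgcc
The Ppp2r1a stretch holds 3 GC box matches, of which the last 2 overlap by a base, and the Ppp2ca stretch holds 1, near its cAMP response element. These are matches of letters, and the arrays did not measure binding at them.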

How the data were processed

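The deposited values are intensities on a linear 1-colour scale, 35556 probe sets by 6 arrays, and the authors' background correction, summarisation, scaling and tests are not given in the sources used here. Per the labels' protocols, 100 ng of total RNA was labelled with biotin by the Affymetrix procedure. A floor of 1 was set, and log2 values were quantile-normalised because array quantiles differed. Probe sets naming 1 gene (21789) were named through GEO's platform annotation, with symbols updated through Entrez identifiers for 21698; 1621 naming several genes were left out and 12146 are unnamed here. Each gene took its probe set with the highest mean, and genes under the 25th percentile of mean level were left out, leaving 14953. limma 3.58.1 in R 4.3.3 (lmFit, eBayes with an intensity trend) tested DPM against vehicle, two-sided, with Benjamini-Hochberg adjustment at 0.05, after a check on simulated data. The changes planted in that check were larger than the difference of any member, so it did not cover changes of the members' size. With 3 arrays per group, their number limits the precision. The labels call the samples biological replicates, without saying that each came from a different mouse, and name no batch or pairing. The limma p-values set each difference against the spread between these samples, with each gene's variance moderated by the trend over all genes tested.

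The members and lists were chosen with earlier results of these data known. Genes named beside the members are the 2 with the smallest p of each list of related genes and close relatives named whatever their value; Ywhae and Ywhaz were named after their values were seen. Marker lists were luminal, basal, adipocyte, fibroblast, macrophage, T cell, B cell, neutrophil, endothelial and skeletal muscle; the heat map of deviations gives all 10. Alternatives are listed in the closing section.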

Additional observations from a re-analysis of the deposited data

How the results depend on the processing

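No member, and no gene of the related lists or of the whole array, passed the adjusted threshold under any of the 18 alternatives: 2 other filters on level (none, or the 50th percentile), median centring, no between-array normalisation, probe sets averaged per gene or taken singly, eBayes in its robust form or with no trend, weights for arrays, a pseudocount of 16, the replicate block, each array left out, or both arrays numbered 3 left out. The smallest adjusted p of any gene ran from 0.182 to 0.864 over these. Without between-array normalisation the unadjusted limma p was 0.0658 for Frk, 0.0601 for Grb2, 0.114 for Pik3cg and 0.00944 for Prkca. With median centring it was 0.0217, 0.0571, 0.0429 and 0.013 in the same order. Same-numbered arrays did not all deviate together, with correlations of -0.120, 0.110 and 0.371 for numbers 1 to 3. Arrays with unlike numbers in the 2 groups had correlations from -0.315 to 0.218, so that of number 3 was the highest. The numbers were not taken as pairs, and a link between the arrays numbered 3 was not tested. With the replicate block 0 genes were called and 723 had an unadjusted limma p under 0.05. Ppp2ca again had the smallest unadjusted limma p among the members, 0.188.

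Pik3ca, Ppp2r1a and Ppp2ca kept their sign under all 18, though leaving out 1 array moved their log2 differences over -0.121 to -0.0114, 0.0146 to 0.0605 and -0.224 to -0.0705; for Plcg1 that range was -0.179 to -0.0265. The same range was -0.0116 to 0.190 for Src, -0.0177 to 0.0721 for Yes1, -0.0873 to 0.155 for Fyn, -0.0225 to 0.142 for Shc1, -0.0511 to 0.0292 for Pik3r1 and -0.0331 to 0.0774 for Akt1, so each of these 6 turned sign. Single values within those ranges that turned were Yes1 -0.0177, Shc1 -0.0207, Pik3r1 0.0114 and Akt1 -0.00881 without DPM replicate 1. They were Fyn -0.0873 and Shc1 -0.0225 without DPM replicate 2, Src -0.0116, Yes1 -0.0175 and Akt1 -0.0331 without DPM replicate 3, Pik3r1 0.0292 without vehicle replicate 1, and Fyn -0.0454 and Akt1 -0.006 without vehicle replicate 2. Signs also turned for Pik3r1 with median centring (0.00869), for Yes1 and Akt1 with array weights (-0.00775 and -0.0158), and without both arrays numbered 3 for Yes1 (-0.0170), Plcg1 (0.0329) and Akt1 (-0.00150). Apart from having fewer arrays where arrays were left out, the cause was not tested. No detection calls were used, so no gene is called absent.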
